A study of Mus musculus with 8 samples.

Results

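Imprinted genes were examined in mouse embryonic stem (ES) cells that were either J1 wild type or labelled as lacking Rex-1. They were chosen by name, as 38 genes expressed mainly from 1 parental allele in mouse tissues, with no threshold on their values here. Earlier results of these data were known when the choice was made, so the shares set beside those of all genes are no test. Of these, 36 had at least 1 probe set listed under that symbol alone, among 18193 genes with such a probe set on the array, and for each the probe set with the highest mean log2 signal over the 8 arrays stands for the gene. H19 and Zrsr1 were not measured in this way: the H19 probe set is listed together with Mir675, and Zrsr1 is not listed alone. By expressed allele as known from mouse tissues, 17 measured genes are counted as maternally expressed and 17 as paternally expressed. Grb10 and Gnas are kept apart, because the allele or alleles they express depend on the tissue. Ube3a, expressed from the maternal copy in neurons, is counted among the maternally expressed genes.

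The study set J1 cells against cells with a Rex-1 knockout, in the presence or absence of LIF (leukemia inhibitory factor), the cytokine that sustains self-renewal of mouse ES cells. Each of the 4 groups (J1 with LIF, J1 without LIF, knockout with LIF, knockout without LIF) has 2 single-colour Affymetrix arrays, 8 in all. All cells grew as monolayers on gelatin in a medium with fetal calf serum, and a text shared by all 8 arrays gives 12 hours without LIF. For the knockout arrays titled as lacking LIF the growth text names added LIF, and the titles and treatment text were followed. How many knockout clones were used, and which part of the gene was deleted, the labels do not say. The arrays of a group are described as biological replicates, but their titles differ only by an ending r that is not explained; the array without it is called the first below and the other the second. The p-values therefore measure only the spread between these arrays.

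The deposited values are linear signal intensities, analysed here as log2. On that scale 10 of the 36 genes had a mean of at least 10, 15 lay between 7 and 10, and 11 lay under 7, where no background or detection value was used and the share of background is unknown. All 36 passed the filter on low values, a log2 signal of at least 4 on at least 2 arrays. No level is compared between genes, because each probe set has its own response. Zfp42, the gene that encodes Rex-1, had signals of 18480 and 23250 in J1 with LIF, 18220 and 20560 in J1 without LIF, 18000 and 17280 in knockout with LIF, and 17140 and 16730 in knockout without LIF. The 4 arrays labelled knockout lay below the 4 J1 arrays, by 0.21 (SE 0.16) on the log2 scale, with high signal on all 8. The labels do not place this probe set relative to the deletion, so the level does not check the labels, and "knockout" means labelled knockout at every direction below. Socs3, a direct LIF target, had a log2 difference without minus with LIF of -2.99 (SE 0.47), and its 4 arrays without LIF lay below the other 4. The 10 ES cell marker genes all had a mean log2 signal of at least 10, and their average ran from 12.37 to 12.8 over the 8 arrays. The second knockout array with LIF stood apart in its signal distribution, with a median signal of 143.5 against 114.2 to 127.9 on the other 7.

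Genomic imprinting marks a gene according to the parent it came from. DNA methylation laid down in one germ line at an imprinting control region persists after fertilisation, held by ZFP57 with TRIM28 and copied by DNMT1, and silences or permits genes across a cluster on that chromosome copy. Maternally expressed genes such as Cdkn1c, Phlda2 and Grb10 tend to restrain growth, whereas paternally expressed genes such as Igf2, Peg3 and Mest tend to promote growth or maternal care. ES cells carry these marks but can lose them in culture. Rex-1 is a zinc finger protein related to YY1.

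Start regions of 4 genes whose signals the results turn on are shown to place their CpG dinucleotides. CpG is the kind of site that DNA methylation modifies. Methylation itself was not measured, and the stretches are not presented as imprinting control regions. Each is the 250 bases before a RefSeq start of the gene, assembly GRCm38.p6, 5′ to 3′ on the gene's strand, with CpG in capitals. The start used need not be the outermost: the Phlda2 stretch lies inside the RefSeq span of that gene, chr7:143501545-143503145. Phlda2 lies at chr7:143502525-143502774 (minus strand, 21 CpG), Grb10 at chr11:12037421-12037670 (minus strand, 40 CpG), Peg3 at chr7:6730420-6730669 (minus strand, 8 CpG) and Meg3 at chr12:109540746-109540995 (plus strand, 10 CpG).
Phlda2: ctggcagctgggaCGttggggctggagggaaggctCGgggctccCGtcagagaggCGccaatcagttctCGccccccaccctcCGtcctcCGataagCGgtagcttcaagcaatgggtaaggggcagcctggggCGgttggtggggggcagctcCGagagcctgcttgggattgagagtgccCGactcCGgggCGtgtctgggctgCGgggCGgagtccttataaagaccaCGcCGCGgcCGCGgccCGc
Grb10: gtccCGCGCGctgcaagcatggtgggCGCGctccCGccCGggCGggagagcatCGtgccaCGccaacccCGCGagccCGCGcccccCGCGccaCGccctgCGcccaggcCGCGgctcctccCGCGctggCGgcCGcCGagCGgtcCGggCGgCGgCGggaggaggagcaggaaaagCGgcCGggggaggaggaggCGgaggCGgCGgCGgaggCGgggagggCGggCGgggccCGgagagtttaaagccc
Peg3: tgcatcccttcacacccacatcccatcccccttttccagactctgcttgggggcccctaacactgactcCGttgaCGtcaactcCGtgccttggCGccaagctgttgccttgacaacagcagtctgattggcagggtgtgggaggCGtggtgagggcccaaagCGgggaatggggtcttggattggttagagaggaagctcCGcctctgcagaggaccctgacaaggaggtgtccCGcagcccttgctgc
Meg3: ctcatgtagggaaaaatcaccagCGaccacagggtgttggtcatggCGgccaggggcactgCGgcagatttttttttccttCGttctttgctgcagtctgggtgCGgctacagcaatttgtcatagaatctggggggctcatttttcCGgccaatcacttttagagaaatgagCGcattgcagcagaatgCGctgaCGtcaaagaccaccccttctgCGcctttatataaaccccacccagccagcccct
The Grb10 stretch shown is dense in CpG along most of its length. The Phlda2 stretch holds most of its CpG toward both ends, with wider gaps in the middle. The Peg3 and Meg3 stretches shown hold scattered ones. Grb10 and Meg3 each have another RefSeq start that is not shown. The 250 bases before it hold 8 CpG for Grb10 (chr11:12027972-12028221) and 0 for Meg3 (chr12:109545148-109545397). Cdkn1c is named without a sequence.

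RefSeq start windows of 300 bases (250 before and 50 after the start) were found for 30 of the genes, 45 windows in all. Their median count of CpG was 14, against 7 over all 32851 windows of 27025 genes, and the median ratio of observed to expected CpG was 0.61 against 0.38. The letters TGCCGC, the core of the ZFP57 motif, were found on either strand in 11 of 45 windows (24.4%), against 11.6% of all windows. These letters contain a CpG and the shares are not matched for CpG content, so they do not show an excess of the motif itself. Windows are not independent: those matching include Mest windows starting at chr6:30737800 and chr6:30737803, which overlap almost fully. The letters GCCATNTT, a core of the motif shared by YY1 and Rex-1, were found on either strand in 2 of 45 (4.44%), at Mkrn3 and Ube3a, against 6.05% of all windows. The Meg3 stretch above holds 1 TGCCGC match on the opposite strand. The Peg3 window and that of its neighbour Usp29, on the opposite strand, overlap by 263 bases. A match is a string of letters and no measure of binding. Introns and control regions outside these windows were not searched, so a window without a match does not show that a gene lacks the motif.

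Knockout and J1 cells were compared for each imprinted gene over all 4 arrays of a genotype. Signal was lower in the knockout on every array for Cdkn1c, Phlda2, Grb10, Gnas and Peg3, by 0.35 to 0.95 on the log2 scale, and no imprinted gene was higher on every knockout array (0 of 36, against 2.32% of all genes). These 5 made up 13.9% of the 36, against 1.94% of the 17832 genes that passed the filter; among genes with a mean log2 signal of at least 7 the shares were 5 of 25 (20.0%) and 2.51% for lower, and 0 of 25 and 2.53% for higher. None reached an adjusted p under 0.05 in limma: 0 of 36, where 0.0% of the 43439 probe sets tested were called. Unadjusted p-values were under 0.05 for Cdkn1c, Grb10 and Phlda2, 3 of 36, against 4.63% of all genes. The other 31 genes had arrays that overlapped between genotypes. Because the genes were chosen with earlier results of these data known, these shares only describe them.

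**Figure D1:**
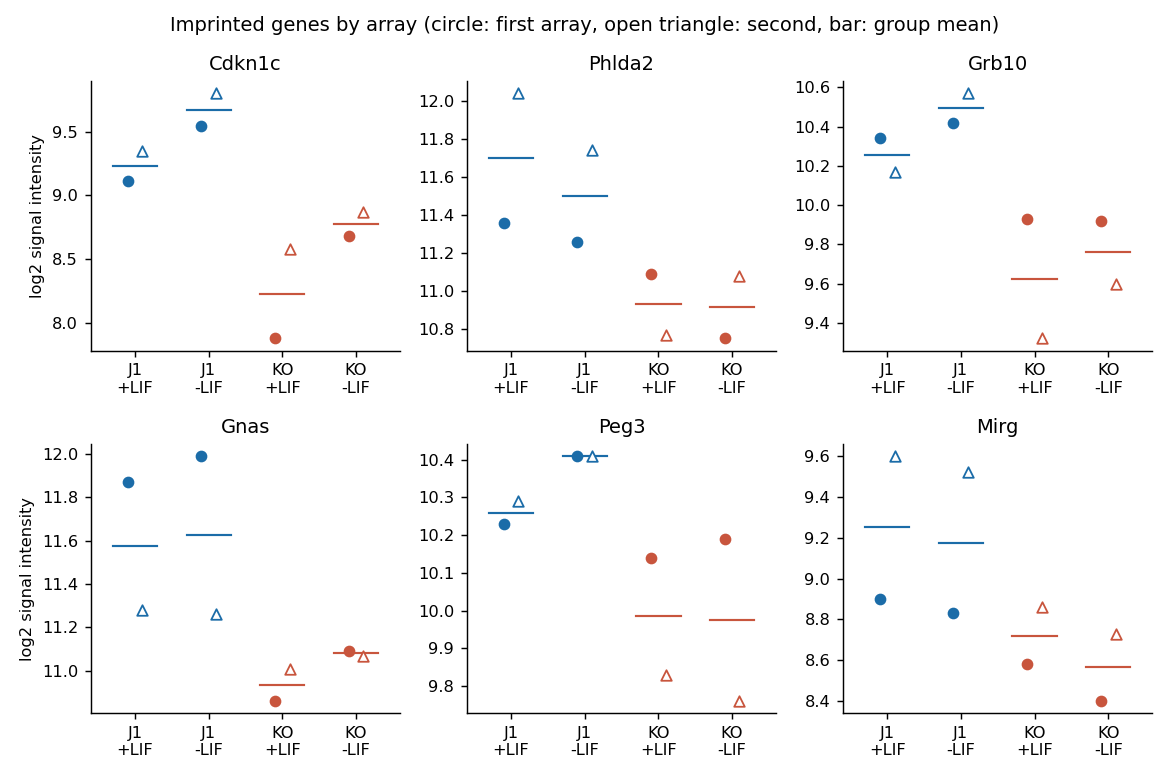
Log2 signal intensity (vertical axis, each panel with its own range) on each of the 8 arrays for Cdkn1c, Phlda2, Grb10, Gnas, Peg3 and Mirg, by group; filled circles are first arrays, open triangles second arrays, bars the mean of 2. For the first 5 genes every array labelled knockout lies below every J1 array, by a gap of 0.04 for Peg3 to 0.24 for Cdkn1c and Grb10, and for Mirg they overlap narrowly.

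The Kcnq1ot1 cluster on distal chromosome 7 held the largest difference among imprinted genes with a mean log2 of at least 7. Its control region is the promoter of the paternally expressed noncoding RNA Kcnq1ot1, which silences neighbours on the paternal copy. Cdkn1c encodes p57KIP2, an inhibitor of cyclin-dependent kinases. Its signal was 551 and 652 in J1 with LIF (601.6 ± 71.9, SD, n = 2), 746 and 892 in J1 without LIF (819.2 ± 103), 236 and 383 in knockout with LIF (309.7 ± 104), and 409 and 467 in knockout without LIF (438.2 ± 41.3). The lowest J1 array stood above the highest knockout array, and within either genotype the arrays without LIF were above those with it. For the order by LIF within a genotype the share of all genes is not given here. The averaged difference, knockout minus J1, was -0.95 (SE 0.22), or 1.93-fold lower, with an unadjusted p of 0.00607 and an adjusted p of 0.801 by limma. It was -0.99 (SE 0.31) with LIF and -0.90 (SE 0.31) without, and -1.04 between the first arrays alone and -0.85 between the second.

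Phlda2, a pleckstrin homology domain protein that restrains placental growth, had signals of 2622 and 4217 in J1 with LIF (3419 ± 1130, SD, n = 2), 2459 and 3424 in J1 without LIF (2941 ± 682), 2182 and 1748 in knockout with LIF (1965 ± 307), and 1718 and 2159 in knockout without LIF (1939 ± 312). Both second J1 arrays were well above all others, and the gap between the genotypes was 0.17 on the log2 scale. The difference was -0.68 (SE 0.25), 1.6-fold lower, with an unadjusted p of 0.0351 and an adjusted p of 0.919 by limma. It was -0.39 between the first arrays and -0.97 between the second.

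The other genes of this cluster did not share that separation. Kcnq1ot1 itself had signals of 739 and 746, 681 and 639, 575 and 731, and 814 and 933 in J1 with and without LIF and knockout with and without LIF, a genotype difference of 0.10 (SE 0.17). Tssc4, a small ubiquitous gene near the edge of the cluster, differed by -0.07 (SE 0.17) and ranged from 623 to 776. Slc22a18, a solute carrier, differed by -0.64 (SE 0.31, unadjusted p 0.0854), with signals between 112 and 243 in J1 and between 75.9 and 117 in the knockout that overlap by a little. A dimmer Slc22a18 probe set (mean log2 of 5.28) differed by -1.11 (SE 0.45, unadjusted p 0.0495 by limma), and its genotypes overlapped too. The potassium channel gene Kcnq1 and Ascl2, a transcription factor of placental progenitors, had mean log2 signals of 5.99 and 6.72 and differences of 0.41 (SE 0.56) and 0.59 (SE 0.60). The median over the 7 genes of the cluster was -0.07, with 4 lower and 3 higher.

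Grb10 encodes an adaptor that restrains insulin and insulin-like growth factor signalling, maternally expressed in most tissues and paternally expressed in neurons. Its signal was 1295 and 1155 in J1 with LIF (1225 ± 99.5, SD, n = 2), 1371 and 1521 in J1 without LIF (1446 ± 106), 976 and 640 in knockout with LIF (807.9 ± 238), and 970 and 774 in knockout without LIF (872.1 ± 138). The knockout arrays were all lower, the second ones most. The difference was -0.68 (SE 0.21), 1.61-fold lower, with an unadjusted p of 0.0187 and an adjusted p of 0.892 by limma; it was -0.63 with LIF and -0.74 without, and -0.45 between the first arrays and -0.91 between the second. All 3 Grb10 probe sets averaging a log2 of 7 or more were lower in the knockout, by 0.33 to 0.74 on the log2 scale, and for 2 of them the genotypes did not overlap, a separation found for 2.37% of all 21010 probe sets at that level. The steepest difference was -0.74 (SE 0.19, unadjusted p 0.00932), in a dimmer probe set than the one described above.

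Peg3, a paternally expressed zinc finger protein, had signals of 1204 and 1248 in J1 with LIF (1226 ± 31.2, SD, n = 2), 1360 and 1364 in J1 without LIF (1362 ± 3), 1130 and 913 in knockout with LIF (1021 ± 154), and 1172 and 868 in knockout without LIF (1020 ± 215). The genotypes were separated by only 0.04 on the log2 scale, and both second knockout arrays were the lowest. The difference was -0.35 (SE 0.18), 1.28-fold lower, with an unadjusted p of 0.105 and an adjusted p of 0.985 by limma; it was -0.15 between the first arrays and -0.55 between the second. All 3 Peg3 probe sets averaging a log2 of 7 or more had lower knockout means, from -0.65 to -0.34, and the arrays of the other 2 overlapped. Its cluster neighbours Usp29, a paternally expressed peptidase gene, and Zim1, a maternally expressed zinc finger gene, had mean log2 signals of 5.96 and 5.10 and differences of -0.31 (SE 0.60) and -0.65 (SE 0.59).

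Gnas encodes the stimulatory G protein alpha subunit, expressed from both copies in most tissues and from the maternal copy in a few. Its signal was 3752 and 2490 in J1 with LIF (3121 ± 893, SD, n = 2), 4063 and 2447 in J1 without LIF (3255 ± 1140), 1859 and 2059 in knockout with LIF (1959 ± 142), and 2180 and 2151 in knockout without LIF (2166 ± 20.3). Both first J1 arrays were far above the other 6. The difference was -0.59 (SE 0.25), 1.51-fold lower, with an unadjusted p of 0.0554 and an adjusted p of 0.956 by limma, and it was -0.96 between the first arrays and -0.23 between the second. The other 4 Gnas probe sets had mean log2 signals between 3.78 and 6.77; averaged with them the gene's difference was 0.03.

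Igf2 and Nnat shared the high first J1 arrays. Igf2, the paternally expressed fetal growth factor, had signals of 812 and 432 in J1 with LIF, 713 and 229 in J1 without LIF, 271 and 352 in knockout with LIF, and 228 and 277 in knockout without LIF. Nnat, a paternally expressed membrane proteolipid, had 773 and 201, 681 and 247, 239 and 236, and 313 and 253 in the same order. In neither gene did the second J1 arrays both lie above the knockout arrays. The Igf2 difference was -0.81 (SE 0.43), made of -1.61 between the first arrays and -0.01 between the second; that of Nnat was -0.64 (SE 0.54), made of -1.41 and 0.13. A second, dimmer Igf2 probe set (mean log2 of 5.51) had a difference of the opposite sign, 1.22 (SE 0.72).

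Some fibroblast markers were also highest on those arrays: for 4 of 11 measured (Col1a1, Col1a2, Pdgfrb and Twist2) both first J1 arrays lay above the other 6, and for the other 7 they did not. The share of all genes with this pattern was not counted, so it cannot be called particular to these markers or to Igf2, Nnat and Gnas. Averaged over the 11 marker genes, log2 signal was 6.74 to 6.83 on the 2 first J1 arrays and 5.62 to 6.47 on the other 6, and 0 of the 11 had a mean of at least 10. The collagen gene Col1a1 had 8.71 to 8.95 against 4.24 to 6.83, and Col1a2 had 8.96 to 9.26 against 7.48 to 7.93, whereas Fap had 5.11 to 5.42 against 4.72 to 6.66 and Lum 5.35 to 5.71 against 5.01 to 7.2. By genotype the 11 markers had a median difference of 0.38, with 5 lower and 6 higher in the knockout. Igf2 had 9.48 to 9.67 against 7.83 to 8.76, Nnat 9.41 to 9.60 against 7.65 to 8.29, and Gnas 11.87 to 11.99 against 10.86 to 11.28. Dcn, the proteoglycan decorin and itself an imprinted gene of the placenta, had 4.63 to 5.43 against 5.25 to 6.77, so it was not high there. The part of other cell types in these signals was not tested, and in such bulk samples fewer cells of a type and less RNA per cell cannot be told apart. For Cdkn1c, Phlda2 and Grb10 the highest of the 8 arrays was a second J1 array, which does not test the part of other cell types. For Peg3 the second and the first J1 array without LIF were nearly level, at signals of 1364 and 1360.

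**Figure D2:**
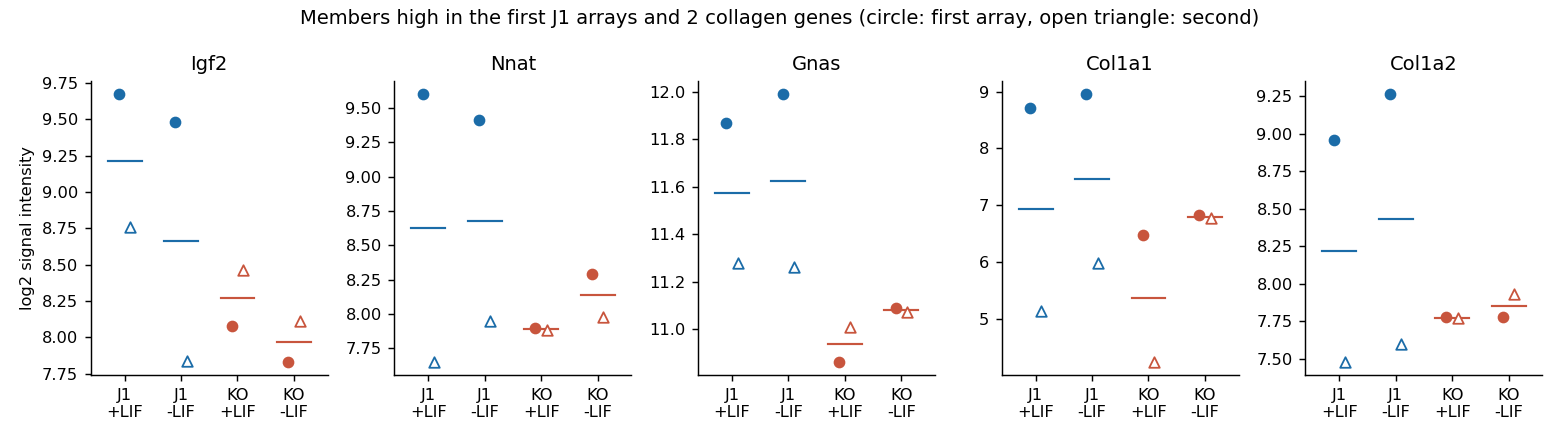
Log2 signal intensity (vertical axis, each panel with its own range) on the 8 arrays for the imprinted genes Igf2, Nnat and Gnas and the collagen genes Col1a1 and Col1a2, by group; filled circles are first arrays, open triangles second arrays, bars the mean of 2. In each panel the 2 first J1 arrays are the highest, for Igf2 at 9.48 to 9.67 against 7.83 to 8.76 on the other 6 arrays.

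The Dlk1-Meg3 cluster on distal chromosome 12 expresses Dlk1, a membrane protein of the Notch ligand family, from the paternal copy and the noncoding RNAs Meg3, Rian and Mirg from the maternal copy, and its silencing in mouse ES cells is known from earlier work as a sign of reduced developmental potential. All 3 noncoding RNAs gave signal on all 8 arrays. Meg3 had signals of 3156 and 5428 in J1 with LIF, 2881 and 4873 in J1 without LIF, 3195 and 3803 in knockout with LIF, and 2538 and 3226 in knockout without LIF. The second array was the higher of each pair, and the genotypes overlapped; the difference was -0.32 (SE 0.28), made of -0.08 between the first arrays and -0.55 between the second.

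Rian had signals of 771 and 1483, 965 and 1546, 868 and 1183, and 931 and 1100 in J1 with and without LIF and knockout with and without LIF, a difference of -0.17 (SE 0.30). Mirg, a transcript within which RefSeq places 10 microRNA hairpins, had 479 and 778, 454 and 736, 382 and 465, and 338 and 425 in the same order. Its highest knockout array was just above its lowest J1 array, and the difference was -0.57 (SE 0.27, unadjusted p 0.0795); a second Mirg probe set differed by 0.04. Dlk1 had 189 and 185, 241 and 222, 252 and 364, and 210 and 276, a difference of 0.38 (SE 0.20), of 0.69 (SE 0.29) with LIF and 0.06 without. With LIF both knockout arrays of Dlk1 were above both J1 arrays, and without LIF they overlapped. The share of all genes separated within a single LIF state is not given here, so this order cannot be called particular to Dlk1.

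**Figure D3:**
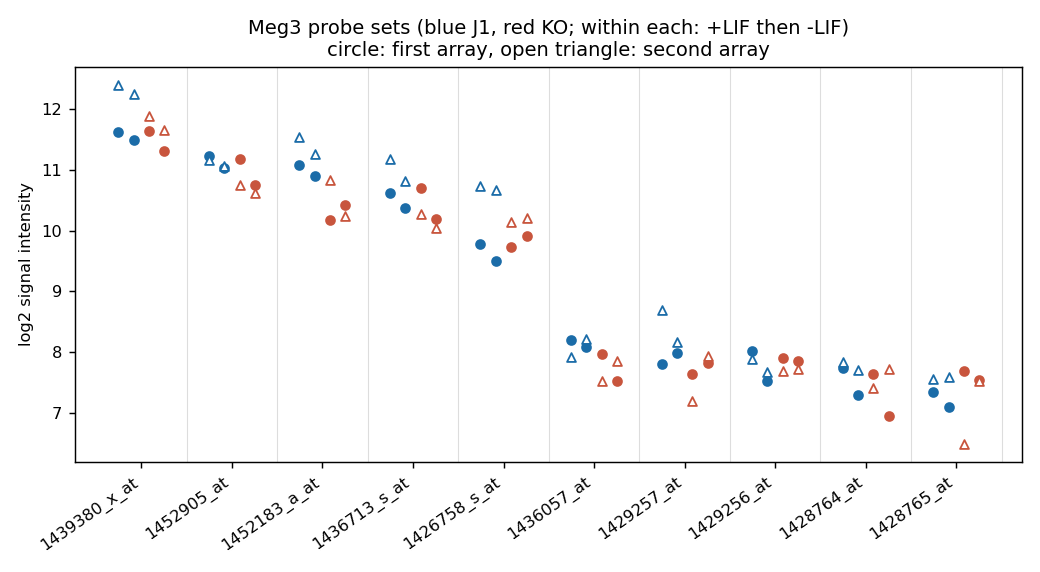
Log2 signal intensity (vertical axis) on the 8 arrays for the 10 Meg3 probe sets averaging a log2 of 7 or more (horizontal axis), in the order J1 with LIF, J1 without LIF, knockout with LIF, knockout without LIF; filled circles are first arrays and open triangles second arrays. In 9 of 10 probe sets the knockout mean is lower, by up to 0.78, and in only 1 of them, the third from the left, every knockout array lies below every J1 array.

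Meg3 was read by 11 probe sets, more than any other gene here. Of the 10 with a mean log2 of at least 7, 9 had a lower knockout mean, with differences from -0.78 to 0.02. In 1 of them the genotypes did not overlap (-0.78, SE 0.24, unadjusted p 0.0178), as against 2.37% of all probe sets at that level. These probe sets read the same RNA samples and are not independent.

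Genes of the Snrpn cluster, which carries the mouse counterpart of the Prader-Willi and Angelman region, differed little by genotype. Ndn, a paternally expressed MAGE family protein, had signals of 2080 and 1041 in J1 with LIF, 2137 and 1575 in J1 without LIF, 2268 and 1437 in knockout with LIF, and 2258 and 1597 in knockout without LIF. The first array was the higher of every pair, and the difference was 0.17 (SE 0.32). Ube3a, a ubiquitin ligase expressed from the maternal copy in neurons, had 4788 and 4477, 6027 and 5251, 5485 and 3746, and 4920 and 4269, a difference of -0.16 (SE 0.20). Magel2, a partner of ubiquitin ligases, differed by 0.29 (SE 0.26), Mkrn3, a ring finger protein, by 0.04 (SE 0.19), and Snrpn, a spliceosome protein read here by 1 of its probe sets, by -0.01 (SE 0.44). All 6 Ndn probe sets averaging a log2 of 7 or more had a slightly higher knockout mean, by 0.02 to 0.27, and in 1 of them the genotypes did not overlap, as against 2.42% of all probe sets at that level. The small gene Peg12 had a mean log2 of 6.29 and a difference of 0.77 (SE 0.88), the highest of the 36.

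In the Mest cluster, Mest, a paternally expressed hydrolase, had signals of 4882 and 5917 in J1 with LIF, 4859 and 5919 in J1 without LIF, 5660 and 7328 in knockout with LIF, and 5832 and 6759 in knockout without LIF. Its difference was 0.24 (SE 0.19), nearly the same between the first arrays (0.24) and the second (0.25), and the arrays overlapped. Copg2, a coatomer subunit gene that overlaps the end of Mest, differed by 0.30 (SE 0.22), of 0.53 between the first arrays and 0.06 between the second. Igf2r, the maternally expressed receptor that clears IGF2, ranged from 548 to 737 in J1 and from 495 to 952 in the knockout. Its probe sets disagreed: the brighter differed by 0.11 (SE 0.28) and the dimmer by 0.47 (SE 0.16, unadjusted p 0.0292), with all 4 knockout arrays above J1 in the latter, as against 2.42% of all probe sets at that level.

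Impact, a paternally expressed regulator of the GCN2 kinase, had 2285 and 2160, 2281 and 2054, 2303 and 2139, and 2348 and 2000 in J1 with and without LIF and knockout with and without LIF. Its difference was 0.00 (SE 0.16), and every pair of arrays lay close to every other. Plagl1, a paternally expressed zinc finger transcription factor, had 837 and 705, 1051 and 841, 701 and 1093, and 989 and 1146, a difference of 0.18 (SE 0.22). In the Peg10-Sgce cluster, Sgce, encoding epsilon-sarcoglycan, differed by 0.11 (SE 0.35) and Ppp1r9a, encoding the actin-binding neurabin, by -0.18 (SE 0.21). Peg10, derived from a retrotransposon, and Asb4, of the ankyrin and SOCS box family, had mean log2 signals of 6.43 and 5.49 and differences of -0.18 (SE 0.38) and 0.06 (SE 0.72). Nap1l5, Dcn and Gatm, all with means near 6, differed by -0.11 (SE 0.77), -0.06 (SE 0.57) and 0.64 (SE 0.65).

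**Figure D4:**
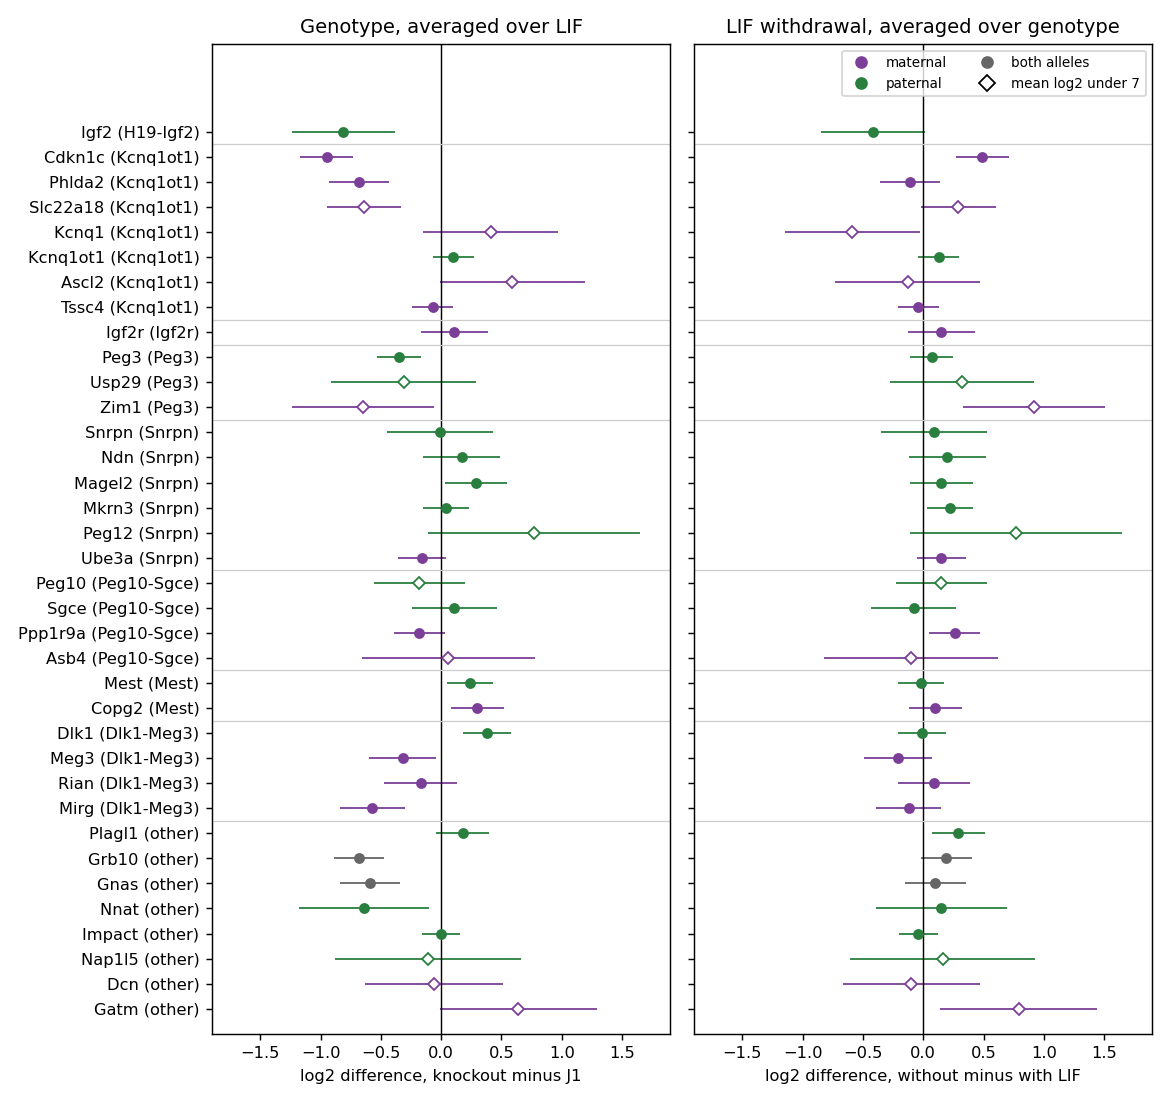
Log2 difference (horizontal axis) of each of the 36 measured imprinted genes (vertical axis, with its cluster), knockout minus J1 averaged over LIF (left) and without minus with LIF averaged over genotype (right); bars are 1 SE from limma, colours the expressed allele, and open diamonds genes with a mean log2 under 7. Cdkn1c, Phlda2, Grb10 and Gnas lie at -0.95 to -0.59 on the left with short bars, and Cdkn1c is at 0.49 on the right.

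Over all 36 genes the median genotype difference was -0.07, with 20 lower and 16 higher, against 0.01 over all 17832 genes. A difference of -0.5 or lower was found for 9 of 36 (25.0%) and for 8.8% of all genes; at a mean log2 of at least 7 it was found for 7 of 25 (28.0%) and 3.02%. Among the 10 with a mean log2 of at least 10, 7 were lower and the median was -0.25, against -0.01 over all genes at that level. By expressed allele, the 17 maternally expressed genes had a median of -0.16 (11 lower), the 17 paternally expressed genes a median of 0.04 (7 lower), and Grb10 and Gnas a median of -0.64. The difference between the allele groups was not tested. With LIF the median was -0.04 and 1 of 36 genes had an unadjusted p under 0.05 (Cdkn1c), against 4.19% of all genes; without LIF it was -0.13 and 2 of 36 (Cdkn1c and Grb10), against 2.87%.

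LIF withdrawal was compared in the same 36 genes. Cdkn1c had the smallest p, with signals of 746 and 892 without LIF against 551 and 652 with it in J1, and 409 and 467 against 236 and 383 in the knockout. Within each genotype the arrays without LIF were the higher, and the averaged difference was 0.49 (SE 0.22, unadjusted p 0.0716), 0.44 (SE 0.31) in J1 and 0.54 (SE 0.31) in the knockout. Its adjusted p was 1.0 by limma. No imprinted gene was called, 0 of 36, where 0.0% of all probe sets were called, and 0 of 36 had an unadjusted p under 0.05, against 3.22% of all genes. For no gene did all 4 arrays without LIF lie above or below the other 4, against 1.0% and 1.4% of all genes.

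The next smallest p-values belonged to Zim1 (0.92, SE 0.59, unadjusted p 0.173), whose signals ran from 13.5 to 77.9, and Plagl1 (0.29, SE 0.22, unadjusted p 0.241). Phlda2 differed by -0.11 (SE 0.25), Grb10 by 0.19 (SE 0.21) and Meg3 by -0.21 (SE 0.28). The median was 0.12, with 13 lower and 23 higher, against -0.01 over all genes, and the values ran from -0.59 for Kcnq1 to 0.92 for Zim1. All 6 genes of the Snrpn cluster had small positive differences, from 0.09 to 0.77. In J1 alone 0 of 36 had an unadjusted p under 0.05, against 2.75% of all genes; the smallest p-values were those of Kcnq1 (-1.33, SE 0.80, unadjusted p 0.150), with signals of 92.3 and 82.4 with LIF and 55.9 and 21.7 without, and Gatm (1.31, SE 0.92, unadjusted p 0.209), with 80.2 and 14.1 with LIF and 72.9 and 94.9 without. In the knockout it was 0 of 36 against 3.36%, and the smallest p-values were those of Kcnq1ot1 (0.43, SE 0.24, unadjusted p 0.125), Cdkn1c (unadjusted p 0.140) and Asb4 (-1.40, SE 1.02, unadjusted p 0.221), with 54.2 and 102 with LIF and 54.2 and 14.6 without.

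Whether the response to LIF withdrawal differed between genotypes was tested as an interaction, the knockout change minus the J1 change. It was called for 0 of 36 genes, where 0.0% of all probe sets were called, and 0 of 36 had an unadjusted p under 0.05, against 2.69% of all genes. The smallest p-values were those of Asb4 (-2.59, SE 1.44, unadjusted p 0.124), Kcnq1ot1 (0.60, SE 0.34, unadjusted p 0.128) and Dlk1 (-0.64, SE 0.40, unadjusted p 0.169). For Cdkn1c it was 0.09 (SE 0.45).

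The letter r in the array titles went with several imprinted genes. All 4 second arrays lay above all 4 first arrays for Igf2r, Peg10, Mest, Meg3 and Rian, 5 of 36 (13.9%) against 7.26% of all genes, and below them for Ndn, Impact and Nap1l5, 3 of 36 (8.33%) against 6.74%. Second minus first was 0.53 (SE 0.17) for Meg3, 0.58 (SE 0.17) for Rian, 0.50 (SE 0.15) for Mirg and -0.65 (SE 0.16) for Ndn. For Meg3, Rian and Ndn these sizes exceed the genotype differences of the same genes. For Cdkn1c it was 0.35 (SE 0.15) and for Grb10 -0.24 (SE 0.18), smaller than their genotype differences.

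Proteins that set or keep imprinting marks were read as a list of 24, of which 22 were measured and 17 had a mean log2 of at least 10. None was called by genotype or LIF, and 1 of 22 had an unadjusted p under 0.05 in either comparison, a share near the 4.63% and 3.22% of all genes: Dnmt3a, a de novo DNA methyltransferase. Its log2 signals were 10.72 and 10.62 in J1 with LIF, 11.27 and 11.17 in J1 without LIF, 10.16 and 9.88 in knockout with LIF, and 10.83 and 10.71 in knockout without LIF. Arrays were lower in the knockout within either LIF state and higher without LIF within either genotype. How large a share of all genes shows such an order is not given here. By limma the genotype difference was -0.55 (SE 0.16, unadjusted p 0.0151) and the LIF difference 0.65 (SE 0.16, unadjusted p 0.0076). Dnmt1, the maintenance methyltransferase, and Mbd3, a subunit of the NuRD complex, had lower, non-overlapping knockout arrays, 2 of 22 against 1.94% of all genes, with differences of -0.21 (SE 0.15) and -0.28 (SE 0.17). Zfp57 differed by -0.18 (SE 0.21), Trim28 by -0.08 (SE 0.19), Uhrf1, the partner of DNMT1, by -0.11 (SE 0.17), Dppa3, which guards maternal marks in the zygote, by -0.05 (SE 0.32) and Ctcf, the insulator protein of the H19-Igf2 control region, by -0.02 (SE 0.18). Dnmt3b differed by -0.33 (SE 0.27), Dnmt3l by -0.04 (SE 0.19) and Yy1 by 0.00 (SE 0.21). The median over the 22 was -0.03.

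Of 24 other genes in or beside the same clusters, 19 were measured, with 8 lower, 11 higher and a median genotype difference of 0.02, against -0.07 for the imprinted genes. Airn, the paternally expressed antisense RNA that silences Igf2r, is named after its values were seen: its log2 signals were 6.09 and 6.38 in J1 with LIF, 6.94 and 7.31 in J1 without LIF, 6.04 and 6.16 in knockout with LIF, and 5.57 and 5.08 in knockout without LIF. Its mean log2 of 6.20 is in the range where background is unknown. For a separation within a single LIF state, as described next, the share of all genes is not given here. The genotype difference was -0.14 (SE 0.29) with LIF, where the arrays overlapped, and -1.80 (SE 0.29) without, where they did not; the averaged value of -0.97 (SE 0.20) had an adjusted p of 0.714 and the interaction of -1.66 (SE 0.41, unadjusted p 0.00757) an adjusted p of 1.0 by limma. Pon3 was the one neighbour of 19 whose knockout arrays all lay above J1, by 0.35 (SE 0.18), as against 2.32% of all genes.

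Markers of further cell types are given beside the genotype comparison. Of 12 extraembryonic endoderm markers, 10 had a higher knockout mean, with a median of 0.23; with LIF 11 were higher (median 0.47), and without LIF 5 were (median -0.06). Their average log2 signal ran from 6.14 to 6.64 on J1 arrays and from 6.33 to 7.1 on knockout arrays; 0 of 12 had a mean of at least 10. Sox17, an endoderm transcription factor, differed by 0.84 (SE 0.19). The 10 measured trophoblast markers had a median of 0.02 (6.11 to 6.82 against 5.96 to 6.72), and the 9 measured neural markers a median of -0.17 (7.15 to 7.28 against 6.29 to 7.2). Their part in the signals of the imprinted genes was not tested.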

How the data were processed

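The deposited table holds 1 linear signal intensity per probe set and array. Per the submitters' processing notes GCRMA was used, with no version or role; the trimmed mean (2% left out at each end) was 500 on every array and no log had been taken by the authors, so the step that made the values is not known, and no genome build is named. Of 45101 probe sets, 64 controls were left out; of the rest 34945 have 1 gene symbol in the platform annotation, 932 several and 9160 none listed here. Log2 signals with no pseudocount, and at least 4 on at least 2 arrays (43439 probe sets), were fitted with limma 3.58.1 in R 4.3.3, with 1 mean per group over all 8 arrays; p-values were adjusted by Benjamini-Hochberg over all probe sets. Genes were represented by the probe set of highest mean, over 17832 genes. Values on every array were given for genes with a mean log2 of at least 10, with non-overlapping groups, or with the 3 smallest p-values in a contrast, and for others where a result turned on them. The fit was checked on simulated data with independent noise on each array, which does not cover deviations that arrays share. Precision is limited by the 8 arrays. The imprinted genes and all other lists were chosen with earlier results of these data known. Figures were drawn with matplotlib 3.10.9.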

Additional observations from a re-analysis of the deposited data

How the results depend on the processing

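No filter, a mean log2 of at least 7, quantile normalization, median centring, only the arrays of the groups compared, the mean of all probe sets per gene and each array left out gave 0 calls in each of the 7 contrasts they could be run on; a trended and robust prior gave 1 by genotype, a probe set with no symbol listed here, and 0 in the other 6. At an unadjusted p under 0.05 the fit called 2291 probe sets by genotype, 1748 by LIF and 1543 by interaction. With the replicate block (the letter r) there were 0 calls, and 3144 at an unadjusted p under 0.05 by genotype; the block left the medians of the imprinted genes at -0.07 and 0.12. Deviations of same-lettered arrays correlated at 0.0496 to 0.198 over 6 pairs of groups, 2 of them under 0.1, and at 0.318 to 0.771 among 6516 averaging a log2 of 10 or more; since the former fell short of the criterion (over 0.1 in every pair), no pairing was assumed, although brighter probe sets deviated together. With the block, unadjusted p-values by genotype were 0.00256 for Cdkn1c, 0.0151 for Grb10, 0.0163 for Mirg, 0.0299 for Phlda2 and 0.0447 for Gnas, and 0.0289 for Cdkn1c by LIF, with adjusted p-values of 0.578 to 0.884 by limma. The genotype median was -0.12 after quantile normalization, -0.14 after median centring and -0.10 to -0.02 with an array left out; the LIF median was 0.17 after median centring and 0.07 to 0.11 with an array left out. With the mean of all probe sets, 3 genes were lower on every knockout array (Cdkn1c, Grb10 and Phlda2), against 1.93% of all genes. The count was 11 without both first J1 arrays (against 8.7%) and 8 without the second arrays with LIF (against 5.02%). It was 5 to 7 with an array left out, where the share of all genes is not given here. Leaving arrays out can only keep or add genes, among all genes as among the imprinted ones. These counts were added after seeing the data. Of the 26 genotype differences followed (every gene averaging 7 or more, plus Slc22a18), those reversed were, with the mean of all probe sets, Gnas (0.03), Dlk1 (-0.06), Igf2 (0.21) and Plagl1 (-0.34); between first arrays only, Kcnq1ot1 (-0.05), Rian (0.06), Magel2 (-0.14), Plagl1 (-0.17), Igf2r (-0.05), Sgce (-0.53), Snrpn (0.68) and Mkrn3 (-0.07); between second arrays only, Tssc4 (0.13), Nnat (0.13) and Impact (-0.03); and, after quantile normalization, Impact (-0.00) and, after median centring, Impact (-0.08) and Mkrn3 (-0.04). The cause was not tested. With an array left out, 19 of 26 genotype and 5 of 6 LIF differences kept their sign; Rian ran from -0.41 to 0.06, Ndn from -0.08 to 0.42, Impact from -0.06 to 0.06, Igf2r from -0.07 to 0.29, Sgce from -0.22 to 0.44, Snrpn from -0.36 to 0.34, Mkrn3 from -0.08 to 0.16 and the LIF difference of Phlda2 from -0.28 to 0.06, while Cdkn1c ran from -1.12 to -0.77. Low signal limits the 11 genes with a mean log2 under 7, where background is unknown.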
